A study of Mus musculus with 8 samples.

Results

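The collagen chain genes were taken as all genes of the count table whose symbol has the form Col, a number, a and a number. This rule found 44 of 53801 genes, and the 36 that averaged 10 or more raw counts over the 8 libraries are described by class. The chains just inside this limit were Col17a1 (mean of 12.25 raw counts) and Col13a1 (12.75), and those just outside it were Col26a1 (7.875) and Col2a1 (7.75). RNA had been sequenced from stromal cells sorted from MO5 tumours, subcutaneous melanomas grown from B16 mouse melanoma cells that carry the ovalbumin gene. The hosts were ADAM12-GFP mice on the C57Bl/6 background, 8 to 12 weeks old at implantation, in which a bacterial artificial chromosome transgene (Cre-Ires-GFP) reports activity of Adam12, and tumours were taken at day 8. All cells were in the PDGFRα+PDPN+ gate after removal of CD45+ and CD31+ cells, and GFP divided them into ADAM12+ (GFP+) and ADAM12- (GFP-) cells, with 4 libraries in each group. The reporter is a transgene, so GFP marks cells that express the transgene, and GFP- cells were not free of Adam12 transcripts. Per the study's methods, replicates count mice unless stated otherwise, and whether a GFP+ and a GFP- library of the same number came from the same mouse is not given in the sources used here.

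Collagens are proteins of 3 chains wound into a triple helix, and most collagens are secreted. Fibrillar collagens give connective tissue its tensile strength, type IV collagen forms the sheet-like network of basement membranes, FACIT collagens sit on the surface of fibrils, and type VI collagen builds beaded microfibrils around cells. Several chains exist for most types, and which chains a cell makes decides which trimers it can assemble.

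Libraries held 883144 (GFP- replicate 3) to 31666734 (GFP+ replicate 4) assigned reads, and values below are read counts divided by the DESeq2 size factor of the library unless another unit is named. Adam12, the gene of the reporter, averaged 1362 normalised reads in GFP- (SD 357, n = 4) and 2302 in GFP+ libraries (SD 484, n = 4), 0.75 ± 0.24 (SE) higher in log2 units (DESeq2 adjusted p = 0.0266). The stromal gate was visible in both groups: the summed level of 7 stromal fibroblast markers ran from 38196 to 44213 in GFP- and from 69685 to 89446 in GFP+ libraries, and 5 of the 7 were called higher. All 8 melanocyte markers were called lower in GFP+ cells, with summed levels of 21722 to 66735 in GFP- and 2564 to 9253 in GFP+ libraries. The melanocyte sums of GFP- replicates 1 to 4 were 46007, 41255, 21722 and 66735. Replicate 4, highest on this sum, was lowest on the collagen share given below, and replicate 3, lowest on this sum, was not highest on that share. Schwann cell markers, 3 of 7 called lower, summed to 637 to 1888 in GFP- and 236 to 521 in GFP+ libraries, with Mag at or near 0. Endothelial markers (0 of 8 called) summed to 1357 to 2835 and 1867 to 3548, with Tie1, Egfl7 and Emcn at or near 0, and pericyte and smooth muscle markers (1 of 8 called higher) to 361 to 999.8 and 661 to 1404, with Higd1b at 0 in every library. Leukocyte markers summed to 616 to 4439 in GFP- and 619 to 3493 in GFP+ libraries, keratinocyte markers to 33.0 to 353 and 41.4 to 85.3, and skeletal muscle markers to 27.9 to 102 and 41.7 to 162, with 0 called in each list. The part of these other cells in the collagen results was not tested. In bulk samples, fewer cells of a type and less RNA per cell cannot be told apart.

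Collagen transcripts were a large part of both populations, and among called chains Col28a1 and 4 of the type IV chains, without Col4a5, stood furthest above their GFP- levels. Reads on all 44 chains made up 7.03%, 7.38%, 5.81% and 3.47% of assigned reads in GFP- replicates 1 to 4 and 8.22%, 8.28%, 8.17% and 8.01% in GFP+ replicates 1 to 4. All GFP+ libraries lay above all GFP- libraries, the GFP+ values were close together, and GFP- replicate 4 was well below the other GFP- libraries. The means were 5.92% ± 1.77 (SD, n = 4) and 8.17% ± 0.114 (SD, n = 4). Fibrillar chains took most of these reads (2.7% to 5.71% in GFP- and 6.19% to 6.45% in GFP+ libraries), while type IV chains went from a range of 0.176% to 0.274% to one of 0.595% to 0.701%. Microfibrillar chains took 0.399% to 1.16% in GFP- and 0.878% to 0.974% in GFP+ libraries, so this class overlapped between the groups. No test was made on shares, and PCR reads were not collapsed to molecules.

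**Figure D1:**
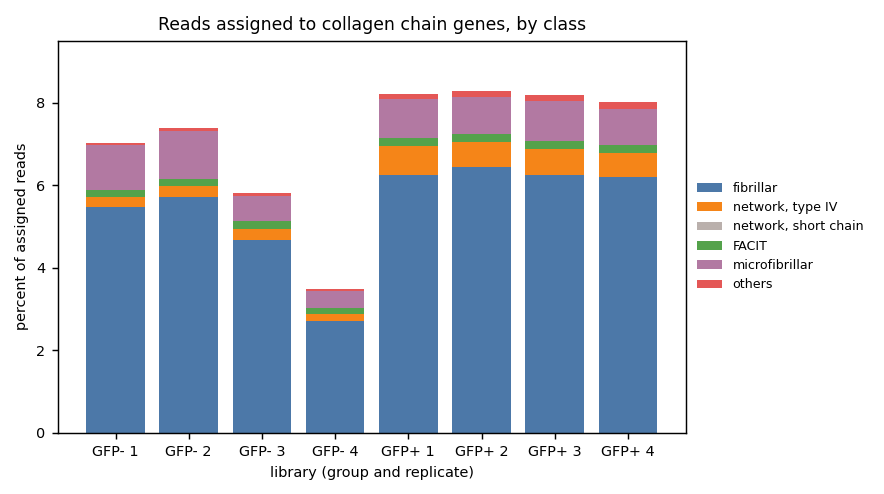
Percent of all assigned reads on collagen chain genes (y axis) in each of the 8 libraries (x axis, group and replicate), stacked by class. The 4 GFP+ libraries sit between 8.01% and 8.28%, above the GFP- libraries, of which replicate 4 is lowest at 3.47%; the short-chain network class is too small to see.

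Gene by gene, 11 of the 36 chains were called higher in GFP+ cells and 1 was called lower (DESeq2 adjusted p under 0.05). Among all 14721 genes tested with the same minimum mean, 4.82% were called higher and 4.8% lower (4.66% and 4.76% of all 15283 genes tested). The median log2 fold change of the 36 chains was 0.28, against 0.00099 for all genes with that mean. Groups did not overlap, with GFP+ higher, for 13 chains, and with GFP+ lower for 1 chain, where 6.58% and 6.09% of genes with that mean did so (6.37% and 5.95% of all genes tested). The edgeR quasi-likelihood test called 8 chains higher (2.83% of its 14323 genes) and 0 lower (2.28% of its genes), and 4 chains were lower at an unadjusted p under 0.05 in edgeR. Limma voom called 11 higher and 1 lower (4.5% of its genes each way). The 8 called by edgeR were Col4a1, Col4a2, Col4a3, Col4a4, Col15a1, Col18a1, Col28a1 and Col6a3. A different scale, chosen after the data had been seen, set each library by the 7 stromal markers alone, whose own log2 fold changes ran from 0.40 to 1.32 with a median of 0.99. It moved the median log2 fold change of all genes tested to -0.89. On that scale 6 chains were called higher (Col4a1, Col4a2, Col4a3, Col4a4, Col15a1 and Col28a1) and 13 lower, where 0.668% of all genes tested were called higher and 45% lower. The 13 were Col1a1, Col4a5, Col5a3, Col6a1, Col6a2, Col6a5, Col6a6, Col8a1, Col11a1, Col12a1, Col14a1, Col16a1 and Col24a1.

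**Figure D2:**
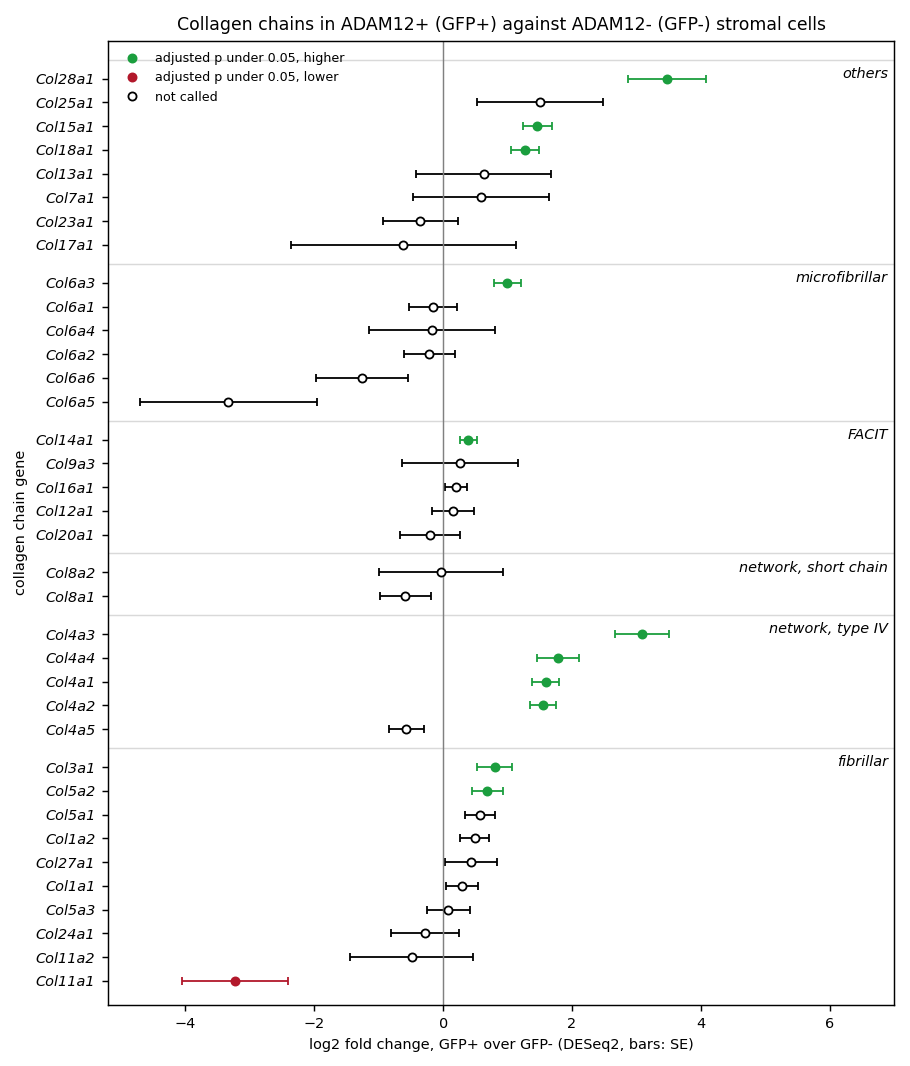
Log2 fold change of GFP+ over GFP- cells (x axis, DESeq2, bars are the SE) for the 36 chains (y axis) grouped by class, 4 libraries in each group. Green filled points are the 11 chains called higher, led by Col28a1 at 3.48 and Col4a3 at 3.08, the red filled point is Col11a1 at -3.23 and open points are the 24 chains not called; with size factors from stromal markers, the called chains Col3a1, Col5a2 and Col14a1 turn negative.

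Type IV collagen had the largest share of called chains of any class, with 4 of its 5 reported chains called higher and 0 lower in DESeq2 (1 lower at an unadjusted p under 0.05). On the stromal marker scale the same 4 were called higher, and the other one, Col4a5, was called lower. The log2 fold changes of the 4 were smaller on that scale, at 0.71 (Col4a1), 0.67 (Col4a2), 2.12 (Col4a3) and 0.83 (Col4a4). The 6 type IV genes lie in 3 head-to-head pairs, each pair read in opposite directions from neighbouring starts. Col4a1 (ENSMUSG00000031502, chr8:11198423-11312826, minus strand) and Col4a2 (ENSMUSG00000031503, chr8:11312805-11449287, plus strand), both in GRCm38, encode the chains of the common basement membrane network. Normalised counts of Col4a1 were 17241, 17191, 17206 and 10373 in GFP- replicates 1 to 4 and 56585, 41688, 47136 and 41226 in GFP+ replicates 1 to 4. The GFP- libraries were alike except for a lower replicate 4, and the lowest GFP+ library was far above the highest GFP- library. GFP+ cells exceeded GFP- cells by 1.59 ± 0.21 (SE) log2 units, that is, 3.01-fold (95% interval 2.27 to 3.99; DESeq2 adjusted p = 8.86e-12). For Col4a2, counts were 8279.8, 8902, 8812 and 5037 in GFP- replicates 1 to 4 and 26430.2, 20260.0, 23011 and 21017 in GFP+ replicates 1 to 4. The pattern was that of Col4a1, with GFP- replicate 4 again lowest, GFP+ replicate 1 highest and no overlap. Col4a2 had a log2 fold change of 1.55 ± 0.21 (SE), that is, 2.93-fold (95% interval 2.20 to 3.89; DESeq2 adjusted p = 4.18e-11). The annotated transcripts of this pair overlap by 22 bases at their starts on opposite strands. Per kilobase of exon, the Col4a1 level was 1.71 to 1.85 times the Col4a2 level in GFP- and 1.74 to 1.90 in GFP+ libraries, so the ratio of the pair overlapped between the groups while both levels differed. Without GFP- replicate 4, which stood apart from the other GFP- libraries, the log2 fold changes were 1.44 (adjusted p = 6.59e-16) for Col4a1 and 1.39 (adjusted p = 3.29e-17) for Col4a2 in DESeq2.

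Col4a3 (ENSMUSG00000079465, chr1:82586921-82722059, plus strand) and Col4a4 (ENSMUSG00000067158, chr1:82448423-82586849, minus strand) encode chains of the network best known from the kidney glomerulus and other specialised basement membranes. Only 71 bases lie between their annotated starts. This interval, chr1:82586850-82586920 in GRCm38.p6 from RefSeq, is shown because both chains rose from either side of it; it is written 5′ to 3′ on the minus strand, the direction of Col4a4, in lower case since none of the motifs searched for lies in it.
Col4a4 to Col4a3: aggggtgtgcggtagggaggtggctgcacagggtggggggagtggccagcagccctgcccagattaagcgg
G and C made up 69.0% of these bases, against a median of 52.4% in the 250 bases before the start of all promoters in the table. The motifs searched on both strands were the GC box GGGCGG, the CCAAT box CCAAT, the TATA box TATAAA and the AP-1 element TGANTCA, which 32.7%, 33.8%, 12.4% and 6.75% of 32851 promoters hold in such 250 bases. Of 38 windows of 35 collagen chains, 22 hold a GC box, 13 a CCAAT box, 5 a TATAAA and 1 a TGANTCA; among the 9 windows of chains called higher these numbers were 2, 3, 1 and 0. Entries were found for 35 of the 44 chains, with Col4a3, Col5a2 and Col14a1 among those without one, and no motif holds the letters of another. A match describes letters only, and the absence of one says nothing about the factor.

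Normalised counts of Col4a3 were 55.6, 78.8, 65.9 and 69.3 in GFP- replicates 1 to 4 and 954, 434, 681 and 238 in GFP+ replicates 1 to 4. All GFP- libraries were low and close together, whereas GFP+ libraries were spread over a wide range, replicate 1 highest and replicate 4 lowest, without reaching the GFP- values. On the log2 scale the difference was 3.08 ± 0.41 (SE), that is, 8.48-fold (95% interval 4.83 to 14.9; DESeq2 adjusted p = 4.10e-11); GFP- replicate 3 held only 6 reads of this gene. Those of Col4a4 were 218, 234, 165 and 209 in GFP- replicates 1 to 4 and 1069, 527, 887 and 409.6 in GFP+ replicates 1 to 4. GFP+ libraries kept the order seen for Col4a3, and the groups did not overlap. Col4a4 had a log2 fold change of 1.78 ± 0.33 (SE), that is, 3.44-fold (95% interval 2.20 to 5.36; DESeq2 adjusted p = 3.92e-06). The Col4a3 to Col4a4 ratio per kilobase of exon ran from 0.271 to 0.426 in GFP- and from 0.618 to 0.950 in GFP+ libraries, so on this measure Col4a3 was higher relative to its partner in every GFP+ library. These ratios are a description with no test. Even in GFP+ cells this pair stayed far below the first pair: per kilobase the mean levels were 57.9 for Col4a3 and 68.2 for Col4a4, against 6251 for Col4a1 and 3426 for Col4a2.

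Col4a5 (ENSMUSG00000031274, chrX:141475385-141689234, plus strand), the chain that joins Col4a3 and Col4a4 in one kind of trimer, went the other way and was not called. Its normalised counts were 593, 318, 329.6 and 521 in GFP- replicates 1 to 4 and 336, 257, 277 and 336 in GFP+ replicates 1 to 4. GFP- replicates 1 and 4 were above the rest, and the other 2 GFP- libraries lay within or close to the GFP+ range, so the groups overlapped. The log2 fold change was -0.57 ± 0.27 (SE; DESeq2 adjusted p = 0.188), with a 95% interval of the fold of 0.468 to 0.970; on the stromal marker scale it was -1.47 (adjusted p = 2.28e-05). Per kilobase, Col4a5 relative to Col4a1 ran from 0.0206 to 0.0558 in GFP- and from 0.00654 to 0.00905 in GFP+ libraries. Its head-to-head partner Col4a6 (ENSMUSG00000031273, chrX:141165403-141474076, minus strand), whose start is 1308 bases away, fell under the minimum of 10 counts. Raw counts of Col4a6 were 0, 1, 0 and 0 in GFP- replicates 1 to 4 and 3, 11, 12 and 22 in GFP+ replicates 1 to 4. Although the groups did not overlap, reads were too few for an adjusted p, and a count of 0 allows up to 3 counts by counting error alone.

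**Figure D3:**
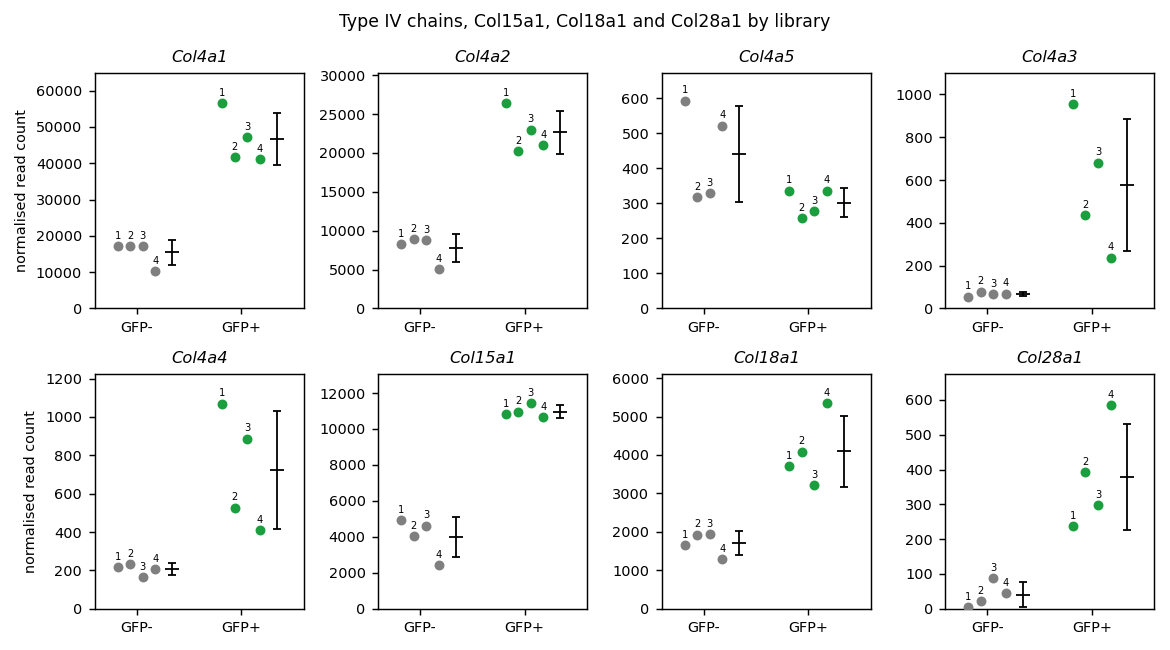
Normalised read count (y axis, linear, from 0) of 5 type IV chains and of Col15a1, Col18a1 and Col28a1 in each library, with GFP- in grey and GFP+ in green, the replicate number above each point, and the mean ± SD of 4 libraries in black. All GFP+ points lie above all GFP- points except for Col4a5, where GFP- replicates 1 and 4 (593 and 521) are highest.

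The multiplexins Col15a1 and Col18a1, proteoglycan-like collagens found at basement membrane zones, and Col28a1, a chain with von Willebrand A domains, were the other chains called higher outside the large classes. Col15a1 (ENSMUSG00000028339, chr4:47208161-47313167, plus strand) had normalised counts of 4909.8, 4019.6, 4626 and 2414 in GFP- replicates 1 to 4 and 10830.1, 10963, 11442 and 10645 in GFP+ replicates 1 to 4. GFP+ libraries were nearly equal and all above the highest GFP- library, and GFP- replicate 4 was lowest. This gave a difference of 1.46 ± 0.22 (SE) log2 units, that is, 2.75-fold (95% interval 2.04 to 3.72; DESeq2 adjusted p = 5.74e-09), and on the stromal marker scale it was 0.60, still called higher. Col18a1 (ENSMUSG00000001435, chr10:77052178-77166548, minus strand), the source of the fragment endostatin, had counts of 1661, 1928, 1945 and 1292 in GFP- replicates 1 to 4 and 3713, 4090.1, 3215 and 5359 in GFP+ replicates 1 to 4. GFP+ replicate 4 was highest, GFP- replicate 4 lowest, and the groups did not overlap. The difference came to 1.27 ± 0.21 (SE) log2 units, that is, 2.41-fold (95% interval 1.80 to 3.23; DESeq2 adjusted p = 3.66e-07), and on the stromal marker scale it was 0.43 (adjusted p = 0.164), which was not called.

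The largest positive difference of the 36 chains belonged to Col28a1 (ENSMUSG00000068794, chr6:7997808-8192617, minus strand), a chain known mainly from peripheral nerve. Its normalised counts were 4.07, 22.2, 87.9 and 45.7 in GFP- replicates 1 to 4 and 237, 392, 297 and 585 in GFP+ replicates 1 to 4. GFP- values were low and uneven, resting on raw counts of 3, 31, 8 and 87, while raw counts in GFP+ libraries were 171, 938, 387 and 1745, and the groups did not overlap. Between the groups, the log2 difference was 3.48 ± 0.60 (SE), that is, 11.1-fold (95% interval 4.92 to 25.2; DESeq2 adjusted p = 7.26e-07), and on the stromal marker scale it was 2.60, still called higher. Beside it, Schwann cell markers moved in the opposite direction, with 3 of 7 called lower and 0 higher, and their part was not tested. The 250 bases before its start (chr6:8192618-8192867, minus strand, GRCm38.p6, RefSeq) are given because this chain had the largest rise; G and C made up 40.4% of them and none of the 4 motifs is in them.
Col28a1: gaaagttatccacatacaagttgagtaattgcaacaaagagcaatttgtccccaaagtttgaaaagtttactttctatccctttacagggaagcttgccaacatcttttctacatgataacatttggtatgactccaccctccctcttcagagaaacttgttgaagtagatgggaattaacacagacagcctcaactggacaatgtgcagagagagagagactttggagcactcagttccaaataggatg
The remaining chains of this mixed group were scarce and not called. They were the anchoring fibril chain Col7a1 (log2 fold change 0.59 ± 1.06 (SE)) and the transmembrane chains Col13a1 (0.63 ± 1.05 (SE)), Col17a1 (-0.62 ± 1.75 (SE)), Col23a1 (-0.35 ± 0.59 (SE)) and Col25a1 (1.5 ± 0.97 (SE)). Col25a1 did not overlap between the groups, but its raw counts were 7, 12, 0 and 2 in GFP- and 10, 40, 20 and 51 in GFP+ libraries, and its DESeq2 adjusted p was 0.397.

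Fibrillar collagen was the most abundant class, with 2 of 10 reported chains called higher, each by less than 1 log2 unit, and the scarce Col11a1 called lower. Col3a1 (ENSMUSG00000026043, chr1:45311538-45349706, plus strand), the chain of type III collagen in elastic and healing tissues, had normalised counts of 268908, 252999, 199486 and 102096 in GFP- replicates 1 to 4 and 388868, 348651, 355097 and 339020.0 in GFP+ replicates 1 to 4. GFP+ libraries were close together and all above the highest GFP- library, and GFP- replicate 4 was below the other GFP- libraries. GFP+ cells exceeded GFP- cells by 0.80 ± 0.27 (SE) log2 units, that is, 1.74-fold (95% interval 1.21 to 2.50; DESeq2 adjusted p = 0.0343); the edgeR adjusted p was 0.0902, and the direction turned to -0.06 (adjusted p = 0.866) on the stromal marker scale. Its call was lost without GFP- replicate 3 (adjusted p = 0.0800) or GFP+ replicate 1 (0.0690), 2 (0.0673) or 3 (0.0896). Its neighbour Col5a2 (ENSMUSG00000026042, chr1:45374321-45503282, minus strand), 24614 bases away and read towards it, encodes a chain of type V collagen, which helps to start fibrils. Counts of Col5a2 were 16184, 19619, 15799.7 and 8282 in GFP- replicates 1 to 4 and 23815, 24191, 24775 and 23370.4 in GFP+ replicates 1 to 4. The GFP+ libraries were again nearly equal, and GFP- replicate 2, the highest of its group, stayed below them. Col5a2 had a log2 fold change of 0.68 ± 0.24 (SE; DESeq2 adjusted p = 0.048; edgeR adjusted p = 0.0983), and turned to -0.17 (adjusted p = 0.577) on the stromal marker scale. Its call was lost without GFP- replicate 1 (adjusted p = 0.0659) or 3 (0.0737) or GFP+ replicate 1 (0.0677), 2 (0.101), 3 (0.132) or 4 (0.0772).

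Neither chain of type I collagen, the main protein of skin and tendon fibrils, was called. Col1a1 (ENSMUSG00000001506, chr11:94936224-94953042, plus strand) had normalised counts of 143399, 150274, 114982 and 64961 in GFP- replicates 1 to 4 and 156141, 137074, 150015 and 135526 in GFP+ replicates 1 to 4. The groups overlapped, since GFP- replicates 1 and 2 lay in the range of the GFP+ libraries and replicates 3 and 4 below it. On the log2 scale the difference was 0.29 ± 0.25 (SE), that is, 1.2-fold (95% interval 0.875 to 1.71; DESeq2 adjusted p = 0.557). Col1a2 (ENSMUSG00000029661, chr6:4504814-4541544, plus strand) had counts of 110493, 109746, 87349 and 53525 in GFP- replicates 1 to 4 and 138548, 118788, 130437 and 118510.0 in GFP+ replicates 1 to 4. All GFP+ libraries were above all GFP- libraries, though by a narrow margin. This gave a difference of 0.49 ± 0.23 (SE) log2 units, that is, 1.40-fold (95% interval 1.03 to 1.91; DESeq2 adjusted p = 0.187). On the stromal marker scale the log2 fold changes were -0.58 (adjusted p = 0.0317) for Col1a1 and -0.38 (adjusted p = 0.136) for Col1a2. Without GFP- replicate 4, which was lowest for these chains and highest for melanocyte markers, DESeq2 gave log2 fold changes of 0.58 (adjusted p = 0.00665) for Col3a1, 0.48 (adjusted p = 0.0106) for Col5a2, 0.09 (adjusted p = 0.85) for Col1a1 and 0.31 (adjusted p = 0.269) for Col1a2. The balance between the 2 fibril types differed within libraries: the Col3a1 to Col1a1 ratio per kilobase ran from 1.05 to 1.25 in GFP- and from 1.58 to 1.70 in GFP+ libraries, without overlap. Col1a1 relative to Col1a2 ran from 2.30 to 2.59 in GFP- and from 2.13 to 2.18 in GFP+ libraries, also without overlap. A ratio inside 1 library is not moved by the size factor, and the group ranges are a description with no test.

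**Figure D4:**
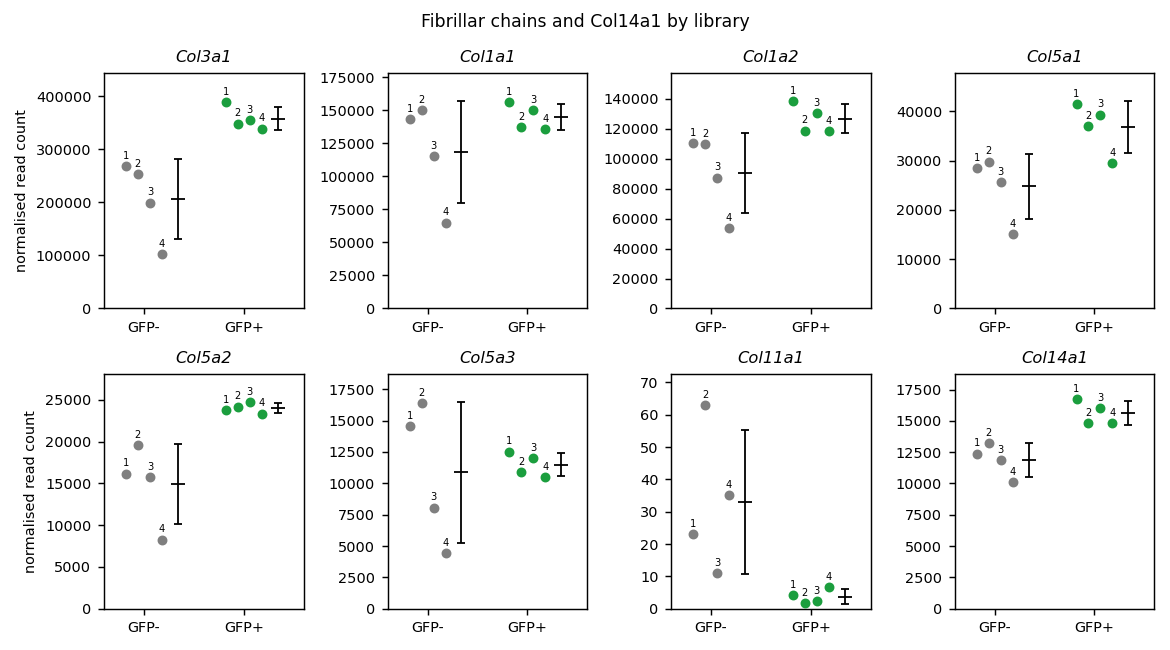
Normalised read count (y axis, linear, from 0) of 7 fibrillar chains and the FACIT chain Col14a1 in each library, with GFP- in grey and GFP+ in green, the replicate number above each point, and the mean ± SD of 4 libraries in black. Col3a1, Col5a2 and Col14a1 were called higher and Col11a1 lower, GFP- replicate 4 is the lowest library for every panel but Col11a1, and on the stromal marker scale the log2 fold changes of Col3a1, Col5a2 and Col14a1 turn negative.

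Among the minor fibrillar chains, Col5a1 averaged 24768 ± 6679 (SD, n = 4) for GFP- and 36863 ± 5205 (SD, n = 4) in GFP+ libraries, which is 0.57 ± 0.23 (SE) log2 units (DESeq2 adjusted p = 0.0983). Col5a3, with a log2 fold change of 0.08 ± 0.34 (SE), was high in GFP- replicates 1 and 2 (14567 and 16381) and low in replicates 3 and 4 (8065 and 4427), around a GFP+ range of 10509 to 12524. Col24a1, Col27a1 and Col11a2 had log2 fold changes of -0.28 ± 0.53 (SE), 0.43 ± 0.40 (SE) and -0.49 ± 0.95 (SE) and were not called. The single chain called lower was Col11a1 (ENSMUSG00000027966, chr3:114030540-114220718, plus strand), a chain of the fibrils of cartilage that is also used as a marker of activated fibroblasts. Its normalised counts were 23.1, 63.1, 10.99 and 35.2 in GFP- replicates 1 to 4 and 4.17, 1.67, 2.30 and 6.71 in GFP+ replicates 1 to 4. All GFP+ libraries were below all GFP- libraries, GFP- replicate 2 was highest, and the counts were low everywhere, with raw counts of 17, 88, 1 and 67 in GFP- and 3, 4, 3 and 20 in GFP+ libraries. The minimum mean raw count was thus met only through the GFP- group. The log2 fold change was -3.23 ± 0.83 (SE), or 9.39-fold lower (DESeq2 adjusted p = 0.00238); the edgeR adjusted p was 0.0784, and without GFP- replicate 2 the DESeq2 adjusted p was 0.101. Of the 4 cartilage markers found, 1 (Hapln1) was called lower, and 2 had positive log2 fold changes (Matn1 1.18 and Matn3 0.09, both scarce). The list summed to 36.6 to 84.6 in GFP- and 13.8 to 29.7 in GFP+ libraries. By mean, most of this sum was Hapln1 (61.9 in GFP- and 14.3 in GFP+ libraries). Acan was at or near 0 in most libraries, and the part of such cells was not tested. The 250 bases before the start of Col11a1 (chr3:114030290-114030539, plus strand, GRCm38.p6, RefSeq) are shown as those of the only chain called lower. Capitals mark GC boxes and, as ATTGG on this strand, a CCAAT box.
Col11a1: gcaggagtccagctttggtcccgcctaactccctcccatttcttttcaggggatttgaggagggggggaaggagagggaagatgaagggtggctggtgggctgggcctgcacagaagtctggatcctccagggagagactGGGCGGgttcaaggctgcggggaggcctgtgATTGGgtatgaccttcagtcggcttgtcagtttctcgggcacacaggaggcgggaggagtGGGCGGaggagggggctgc

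Among FACIT chains 1 of 5 reported was called, by a small difference. This was Col14a1 (ENSMUSG00000022371, chr15:55307750-55520803, plus strand), which binds the surface of mature fibrils. Its normalised counts were 12393, 13247, 11855 and 10082 in GFP- replicates 1 to 4 and 16737, 14828, 16028 and 14812 in GFP+ replicates 1 to 4. The groups did not overlap, and the distance between them was small, with GFP- replicate 2 close to GFP+ replicates 2 and 4. The difference came to 0.39 ± 0.14 (SE) log2 units, that is, 1.31-fold (95% interval 1.09 to 1.58; DESeq2 adjusted p = 0.0439); the edgeR adjusted p was 0.137, and on the stromal marker scale the direction turned to -0.49 (adjusted p = 0.00293). Its call held without GFP- replicate 2 and was lost without any other library, with adjusted p from 0.0710 (GFP- replicate 3) to 0.163 (GFP+ replicate 3). The fibril-associated chains Col12a1 and Col16a1 were at log2 fold changes of 0.15 ± 0.33 (SE) and 0.20 ± 0.17 (SE), with 95% intervals of the fold of 0.713 to 1.73 and 0.906 to 1.45. Col20a1 and Col9a3, both scarce, had values of -0.21 ± 0.47 (SE) and 0.27 ± 0.90 (SE). The short-chain network chains Col8a1 and Col8a2, known from the cornea and vessel walls, had log2 fold changes of -0.59 ± 0.40 (SE) and -0.04 ± 0.96 (SE), and neither was called.

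Type VI collagen divided the GFP- libraries among themselves more than it divided the groups, and 1 of 6 chains was called. Col6a3 (ENSMUSG00000048126, chr1:90765923-90843971, minus strand), the large chain that completes the common type VI trimer, had normalised counts of 36360.1, 36736, 33533 and 20297 in GFP- replicates 1 to 4 and 70002, 57477, 70238 and 55143 in GFP+ replicates 1 to 4. Each GFP+ library was well above the highest GFP- library, and GFP- replicate 4 was lowest. Between the groups, the log2 difference was 0.99 ± 0.21 (SE), that is, 1.99-fold (95% interval 1.49 to 2.66; DESeq2 adjusted p = 1.44e-04), and on the stromal marker scale it was 0.12 (adjusted p = 0.636), which was not called. Its trimer partners, the neighbours Col6a1 and Col6a2 on chromosome 10, are described after their values were seen. Counts of Col6a1 were 32397, 32668, 12822 and 8033 in GFP- replicates 1 to 4 and 22331, 16755, 20123 and 17931 in GFP+ replicates 1 to 4. GFP- replicates 1 and 2 were above every GFP+ library and GFP- replicates 3 and 4 below every one, and the log2 fold change was -0.16 ± 0.38 (SE). Counts of Col6a2 were 33962, 35115, 12251 and 7655 in GFP- replicates 1 to 4 and 20433, 17887, 19018 and 19290.4 in GFP+ replicates 1 to 4, with the same division of GFP- libraries. For Col6a2 the log2 fold change was -0.22 ± 0.40 (SE). On the stromal marker scale, where 45% of all genes tested were called lower, so were Col6a1 (-1.02) and Col6a2 (-1.07). Within libraries, the Col6a3 to Col6a1 ratio per kilobase was 0.411 and 0.412 in GFP- replicates 1 and 2, 0.958 and 0.925 in replicates 3 and 4, and 1.13 to 1.28 in GFP+ libraries.

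The same division was widest for Col6a5 and Col6a6, chains that can take the place of Col6a3 in the trimer and that lie with Col6a4 in a row on chromosome 9. Normalised counts of Col6a5 (ENSMUSG00000091345, chr9:105856078-105960643, minus strand) were 9126, 8891, 109.9 and 65.7 in GFP- replicates 1 to 4 and 709.6, 286, 656 and 158 in GFP+ replicates 1 to 4. GFP- replicates 1 and 2 were far above all others, and replicates 3 and 4 were below every GFP+ library. Its log2 fold change of -3.33 ± 1.38 (SE) therefore rested on 2 libraries (DESeq2 adjusted p = 0.114). Col6a6 (ENSMUSG00000043719, chr9:105687809-105828160, minus strand) had counts of 4267, 4564, 692 and 671 in GFP- replicates 1 to 4 and 1409, 920.4, 1162 and 778 in GFP+ replicates 1 to 4. Again GFP- replicates 1 and 2 were highest and replicates 3 and 4 below the GFP+ libraries, with a difference of -1.26 ± 0.72 (SE) log2 units (DESeq2 adjusted p = 0.312). For Col6a6 this was -0.74 with the block, -1.02 in limma voom, both not called, and -2.14 on the stromal marker scale, called lower. DESeq2 gave neither chain an adjusted p once GFP- replicate 1 or 2 was left out; without GFP- replicate 3 the adjusted p was 0.0354 for Col6a5 and 0.0234 for Col6a6, and without GFP- replicate 4 that of Col6a5 was 0.0392. The labels give no batch for these libraries. Sums of 4 marker lists also separated GFP- replicates 1 and 2 from GFP- replicates 3 and 4, a division of 4 libraries that arises often by chance. The keratinocyte sum was higher in replicates 1 and 2. Leukocyte, pericyte and smooth muscle, and skeletal muscle sums were lower there, opposite to the type VI chains. Stromal fibroblast, melanocyte, Schwann cell, endothelial and cartilage sums were not separated in this way. In replicate 3 the keratinocyte sum came from Krt10 alone. Keratinocyte markers summed to 353 and 148 in replicates 1 and 2 and to 33.0 and 82.5 in replicates 3 and 4, and leukocyte markers to 749 and 616 against 4439 and 1537. Pericyte and smooth muscle markers summed to 421 and 361 against 999.8 and 589, and skeletal muscle markers to 44.8 and 27.9 against 76.9 and 102. Melanocyte markers summed to 46007 and 41255 against 21722 and 66735. The part of any of these cells in the type VI values was not tested. Col6a4, at -0.17 ± 0.97 (SE), was scarce. Col6a4, Col6a5 and Col6a6 are paralogs, so their separate counts may be uncertain, and reads shared between them were not measured here.

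**Figure D5:**
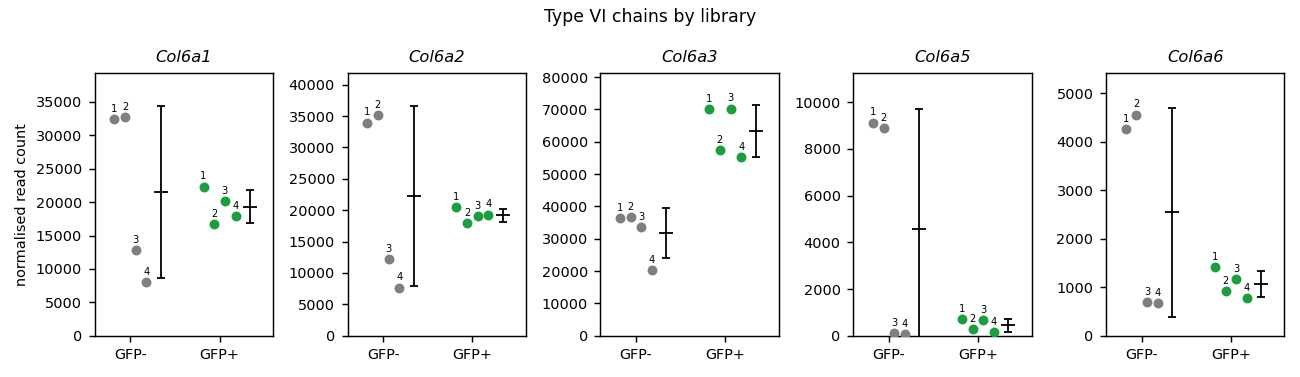
Normalised read count (y axis, linear, from 0) of 5 type VI chains in each library, with GFP- in grey and GFP+ in green, the replicate number above each point, and the mean ± SD of 4 libraries in black (SD bars that reach below 0 are cut there). For Col6a1, Col6a2, Col6a5 and Col6a6, GFP- replicates 1 and 2 lie above and replicates 3 and 4 below the GFP+ libraries, whereas Col6a3 is higher in every GFP+ library.

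The other 8 chains were under the minimum of 10 counts: Col2a1, Col4a6, Col9a1, Col9a2, Col10a1, Col19a1, Col22a1 and Col26a1. No library held more than 31 reads of any of them. Several belong to cartilage, such as Col2a1, Col9a1, Col9a2 and Col10a1, and a difference in them was not detectable at this depth.

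Levels of different chains were compared per kilobase of annotated exon. Col3a1 ranked first in both groups, at 20973 ± 7669.9 (SD, n = 4) per kilobase for GFP- and 36462 ± 2208 (SD, n = 4) in GFP+ libraries. Col1a1 followed at 18041 ± 5907 (SD, n = 4) per kilobase for GFP- and 22046 ± 1527 (SD, n = 4) in GFP+ libraries, and Col1a2 at 7265 ± 2153 (SD, n = 4) per kilobase for GFP- and 10186 ± 783 (SD, n = 4) in GFP+ libraries. In GFP- libraries the mean levels of Col3a1 and Col1a1 were closer than their SDs, but Col3a1 was above Col1a1 within each library of both groups. Lengths of the longest transcript instead of all annotated exons raised Col1a2 to 16881 in GFP- and 23667 in GFP+ libraries and Col3a1 to 37001 and 64326, so the gap between Col1a1 and Col1a2 depends on the transcript assumed. Col4a1 came next in each GFP+ library, with a mean of 6251 per kilobase, and ranked 8 by its mean in GFP- libraries. By its mean Col6a1 came next in GFP- libraries (4904 ± 2948, SD, n = 4), a value carried by replicates 1 and 2, and in GFP- replicate 3 Col5a1 was above it.

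Genes that act with collagens were read from lists. Of 23 tested partners in basement membranes and fibrils, 16 were called higher and 0 lower in DESeq2 (4.66% and 4.76% of all genes tested), with 2 lower at an unadjusted p under 0.05, and edgeR called 13 higher and 0 lower. The median log2 fold change of this list was 0.87, against -0.0082 for all genes tested. On the stromal marker scale, which itself contains Dcn and Lum, 2 of the 23 were higher and 3 lower (0.668% and 45% of all genes tested on that scale). Among those called, the largest differences were those of Lamc3 (1.65 ± 0.48, SE), a laminin chain, Nid2 (1.57 ± 0.21, SE), a nidogen that links laminin to type IV collagen, and the fibril-binding proteoglycans Ogn (1.32 ± 0.17, SE), Bgn (1.23 ± 0.22, SE) and Lum (1.19 ± 0.15, SE). DESeq2 adjusted p-values of these 5 ran up to 0.0104. Of 33 enzymes and helpers of collagen synthesis and processing, 5 were called higher and 1 lower (3 and 0 in edgeR, which called 2.83% and 2.28% of its genes), with a median of 0.29. The 1 lower is no more than the share of all genes called lower. The 3 called genes with the largest positive values were P4ha3 (1.28 ± 0.44, SE), a prolyl hydroxylase subunit, Adamts2 (1.21 ± 0.22, SE), which removes the amino-terminal propeptide, and Pcolce (1.12 ± 0.15, SE), an enhancer of carboxy-terminal processing. The other two, named after their values were seen, were the crosslinking enzyme Lox (0.95 ± 0.27, SE) and Pcolce2 (0.54 ± 0.16, SE). P3h2, a prolyl 3-hydroxylase that acts on type IV chains, was the 1 called lower, at -2.41 ± 0.74 (SE) with a DESeq2 adjusted p of 0.0174. Of 10 tested collagen receptors, 1 was called higher (Mrc2, an endocytic receptor named after its value was seen, 0.64 ± 0.21, SE) and 1 lower (Adgrg1, a receptor for type III collagen, -2.38 ± 0.47, SE), and the median was -0.11. For a list of 10, 1 in each direction is close to the shares of all genes called. The edgeR test called 0 receptors higher and 1 lower, and the DESeq2 count of 1 higher fell to 0 without GFP- replicate 2 or GFP+ replicate 1, 2 or 3. On the stromal marker scale 0 of the 33 were higher and 17 lower, and 0 of the 10 were higher and 6 lower, where 45% of all genes tested were called lower, so the calls of both lists moved with the scale.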

How the data were processed

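The 8 libraries were grouped by their labels. Per the labels and the study's methods, the authors made stranded total RNA libraries from small inputs, trimmed reads with cutadapt 3.4, mapped them to GRCm38 with STAR 2.7.3a and assigned them by strand to Ensembl genes with featureCounts 2.0.1. The deposited table gives a raw count per gene and library, used here, and a normalised score per library, not used. Its columns of group means, dispersions, fold changes and p-values were not used either. Reads of paralogs may be lost, and PCR copies remain in the counts.

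Genes with a count (29043) were fitted with DESeq2 1.42.0 in R 4.3.3 (group as the only term, defaults, two-sided Wald test), with Benjamini-Hochberg adjustment over 15283 genes and calls at an adjusted p under 0.05. Fold intervals reach 1.96 SE to each side. Levels per kilobase used the union of exons in GENCODE M21, which held all 44 chains, and motifs the 250 bases before RefSeq starts. Replicates differed by more than sampling noise (chi-square per degree of freedom 10.2 to 81.3). The code was tested on simulated data.

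The members, lists and tests were chosen with earlier results of these data known. Values in every library are given for called chains, the 3 highest per length and head-to-head pairs, and at most 10 partners are named by size of change. Alternatives were edgeR 4.0.16 (quasi-likelihood, TMM), limma 3.58.1 voom, TMM factors, a minimum mean of 10 counts, no independent filtering, no Cook's filter, a stricter adjusted p of 0.01, a block for replicate numbers, a minimum absolute log2 fold change of 1, other denominators and lengths, and each library left out. Size factors from 7 stromal markers and shares with a library left out were chosen after seeing the data.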

Additional observations from a re-analysis of the deposited data

Results flagged for a closer look

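The highest or lowest library stood apart from the other 3 of its group in 3 of 72 sets of 4 libraries, by Dixon's 95% critical value, where chance flags about 1 in 20 sets. For Col6a4, GFP- replicate 3, the shallowest library, had a normalised count of 132 from 12 reads, against 14.9 to 18.6 in the other GFP- libraries. For Col4a1, GFP- replicate 4 had 10373, against 17191 to 17241 in the other GFP- libraries. For Col4a2, GFP- replicate 4 had 5037, against 8280 to 8902 in the others. The calls of Col4a1 and Col4a2 were kept without that library.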

How the results depend on the processing

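Each of the 36 reported chains was refitted in 16 ways. Of 557 pairs of chain and setting with an adjusted p, 475 kept direction and side of the threshold, 27 lost a call, 12 gained one and 43 turned direction; 19 pairs had no adjusted p. Col4a1, Col4a2, Col4a3, Col4a4, Col15a1 and Col28a1 were called higher in all 16, and Col6a3 and Col18a1 in all but the stromal marker scale (adjusted p = 0.636 and 0.164). Col14a1 lost its call in 9 settings, Col5a2 in 8 and Col3a1 in 6, and each also turned direction on the stromal marker scale. Col11a1 lost its call in edgeR and without GFP- replicate 2.

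The count of chains called higher, 11, was 7 where absolute log2 fold changes had to reach 1, 6 on the stromal marker scale, 8 in edgeR, without independent filtering and at an adjusted p under 0.01, and 8 to 11 with each library left out (8 without GFP- replicate 3 or GFP+ replicate 1, 2 or 3). The count called lower, 1, was 0 in edgeR, 13 on the stromal marker scale, and 0 to 3 with each library left out (0 without GFP- replicate 2, 3 without GFP- replicate 3 and 2 without GFP- replicate 4). For synthesis and processing genes, 5 higher became 3 in edgeR, 0 on the stromal marker scale and 2 to 5 with each library left out (2 without GFP+ replicate 3, 3 without GFP- replicate 1 or 2, 4 without GFP- replicate 4 or GFP+ replicate 2); 1 lower became 0 in edgeR, 0 in limma, 17 on the stromal marker scale and 0 without GFP- replicates 1 or 4 or GFP+ replicate 2. For receptors, 1 higher became 0 in edgeR, 2 in limma (which called 4.5% of its genes higher), 0 on the stromal marker scale and 0 to 2 with a library left out (2 without GFP- replicate 3, 0 without GFP- replicate 2 or GFP+ replicates 1, 2 or 3), and 1 lower became 6 on the stromal marker scale and 2 without GFP- replicate 1. For basement membrane and fibril partners, 16 higher became 2 on the stromal marker scale, and 0 lower became 1 with a minimum mean of 10 counts, 3 on the stromal marker scale and 1 without GFP- replicates 3 or 4 or GFP+ replicate 1. With longest transcripts, levels per kilobase were 24399 for Col1a1 in GFP+, 16881 and 23667 for Col1a2 in GFP- and GFP+, and 37001 and 64326 for Col3a1. The cause of these moves was not tested.

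Directions turned on the stromal marker scale for Col12a1 -0.71, Col13a1 -0.24, Col14a1 -0.49, Col16a1 -0.70, Col1a1 -0.58, Col1a2 -0.38, Col27a1 -0.43, Col3a1 -0.061, Col5a1 -0.30, Col5a2 -0.17, Col5a3 -0.78, Col7a1 -0.23 and Col9a3 -0.52 (log2 fold changes), where all genes tested had a median of -0.89. In limma they turned for Col11a2 0.66, Col20a1 0.16, Col23a1 0.22, Col24a1 0.22, Col6a1 0.045, Col6a2 0.033, Col8a1 0.0077 and Col8a2 0.049. Leaving out each library in turn changed the sign of 10 chains that had not been called, given here with their lowest and highest log2 fold change and the replicates whose absence turned them: Col12a1 (-0.11 to 0.31; GFP- 4), Col20a1 (-0.43 to 0.073; GFP- 1), Col23a1 (-0.62 to 0.11; GFP- 1), Col24a1 (-0.61 to 0.13; GFP- 2), Col5a3 (-0.18 to 0.34; GFP- 3 or 4), Col6a1 (-0.43 to 0.12; GFP- 1 or 2), Col6a2 (-0.50 to 0.089; GFP- 1 or 2), Col6a4 (-1.42 to 1.07; GFP- 3 or GFP+ 2 or 4), Col8a2 (-0.43 to 0.35; GFP- 2 or 3 or 4 or GFP+ 1) and Col9a3 (-0.11 to 0.79; GFP- 1 or GFP+ 4).

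The labels do not say whether libraries that share a replicate number came from the same mice, and the values did not settle it: deviations of same-numbered libraries from their group means correlated at 0.050, -0.16, -0.12 and 0.26 for replicates 1 to 4 over 8812 genes, and GFP- replicate 4 alone correlated best with its own number. With the replicate number as a block, 13 chains were called higher and 1 lower, Col1a2 (adjusted p = 0.0459) and Col5a1 (0.00145) joining the called chains, and Col11a2 0.12, Col6a1 0.076 and Col6a2 0.059 turned direction. The block gave 7 higher and 1 lower for synthesis and processing genes, 1 and 1 for receptors and 16 and 0 for basement membrane and fibril partners. Without GFP- replicate 4, the difference between the group means of the log2 collagen share was 0.29 instead of 0.52. GFP- replicate 3, with 883144 reads, limits what can be seen of scarce chains.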
